A study of Homo sapiens with 6 samples.

Results

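Homologous recombination and the Fanconi anemia pathway repair double-strand breaks and DNA interstrand crosslinks. The 38 genes described here were taken by symbol from a fixed list of names, and all 38 were found among the 23228 gene names of the table. All 38 also passed the filter on low values, a mean of at least 10 normalized counts over the 6 libraries, which 13255 genes passed. RNA was sequenced from SaOS-2 cells, a human osteosarcoma line described by the study as null for RB, that carry a doxycycline-inducible p21 vector. The p21 OFF group was 3 untreated libraries, and the p21 ON group was 3 libraries of cells given 1 μg/ml doxycycline for 24 h, all from the same line in DMEM with fetal bovine serum. Both groups carry the vector, and cells given doxycycline without it were not analysed here, so effects of the drug and of p21 cannot be told apart. p21 inhibits cyclin-dependent kinases and arrests the cell cycle, and the study asked which cell cycle genes p21 can repress in cells without RB.

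The labels number the libraries without saying whether they came from separate cultures, while the study's methods call its replicates biological. p-values set the difference between the groups against the spread between these libraries, part of which may be technical. In limma that spread is moderated across all genes tested. A value is a normalized count, the reads on a gene divided by the DESeq2 size factor of its library. The whole reads behind the values summed to 12795490, 20914151 and 21975045 with p21 OFF and to 13440402, 12918390 and 16630552 with p21 ON. A single value of the 38 genes rested on 20 to 2558 reads, and 6 genes had fewer than 100 reads in at least 1 library. p21 OFF replicate 1 had the fewest reads and stood apart from the other p21 OFF libraries, with a chi-square per gene of 8.50 and 9.26 against them, where the other 4 pairs of replicates gave 2.71 to 3.98. CDKN1A, which encodes p21, had 1257, 1187 and 1355 normalized counts with p21 OFF and 40470.4, 43863 and 46739 with p21 ON, as the labels have it. RB1 reads were present, at 555 ± 66.8 normalized counts with p21 OFF and 654 ± 39.7 with p21 ON (SD, n = 3 each), and say nothing of whether a protein is made. Of 8 osteoblast markers, ALPL (36026 in p21 OFF), SPARC (20141), COL1A1 (7245), SP7 (5568) and RUNX2 (3412) were abundant, IBSP had 129, COL1A2 had 2.10 and BGLAP was listed at 0 in all 6 libraries. Of the blood cell markers PTPRC, CD3E and CD14, none had a mean above 7.42 in either group. Means of CDH1 and CDH5 stayed at or below 2.63, while EPCAM had 330.2 with p21 OFF and 313 with p21 ON, VWF 53.6 and 77.2, KRT5 22.3 and 27.4 and PECAM1 12.6 and 13.5. Of these markers VWF was called higher with p21 ON (limma adjusted p = 0.0333) and IBSP lower (limma adjusted p = 0.0264), and their part in the results was not tested.

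In the Fanconi pathway a core complex, whose FANCL subunit is a ubiquitin ligase, acts with the E2 enzyme UBE2T to ubiquitinate FANCD2 and FANCI, which brings nucleases to a crosslink. In homologous recombination the MRE11-RAD50-NBN complex and CtIP, encoded by RBBP8, start to resect the broken ends, EXO1 and DNA2 extend the resection, and BRCA1, PALB2 and BRCA2 prepare the single strand for invasion of the template. Joint molecules are then taken apart by the BLM helicase with TOP3A, RMI1 and RMI2, or cut by MUS81-EME1, SLX4-bound nucleases and GEN1. The sister chromatid is the preferred template, so the pathway acts mainly in S and G2 phase.

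After p21 induction 22 of these genes fell and 2 rose, and 6 of the 8 roles held both genes that fell and genes that did not pass the test. By limma on log2(normalized count + 1) with Benjamini-Hochberg adjustment over all 13255 genes and a threshold of 0.05, the genes that rose were RBBP8 and TOP3A, and 14 were neither. Of the 38 genes this is 57.9% lower and 5.26% higher, beside 12.7% lower and 10.5% higher among all genes tested. The balance over all genes turned when libraries were scaled by their totals, to 9.01% lower and 15.3% higher, while 21 of the 38 genes were then lower and 3 higher. The median log2 fold change of the 38 was -0.41, with quartiles of -0.94 and 0.043, where the median over all genes tested was 0.0056. Falls of at least 1 on the log2 scale were found for 10 of the 38 genes, EME1, RAD51AP1, EXO1, POLQ, FANCD2, FANCB, XRCC2, BLM, GEN1 and FANCM, while 1.15% of all genes fell that far. The groups did not overlap for 27 of the 38 genes, with p21 ON lower in 23 and higher in 4, beside 21.3% and 19.1% of all genes tested. The summed normalized counts of the 38 genes were 24371, 25045 and 24836 with p21 OFF and 20988, 20680 and 20200.3 with p21 ON, again without overlap. In RNA from whole cultures, fewer cells in S and G2 phase and less RNA per cell cannot be told apart. Without p21 OFF replicate 1, 21 of the 38 genes were lower and 2 higher. Without p21 ON replicate 1, 20 were lower and 1 higher, while the counts over all genes moved from 1681 lower and 1393 higher to 887 and 695. Without p21 ON replicate 3, 20 of the 38 were lower and 1 higher, and over all genes 1077 were lower and 739 higher.

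**Figure D1:**
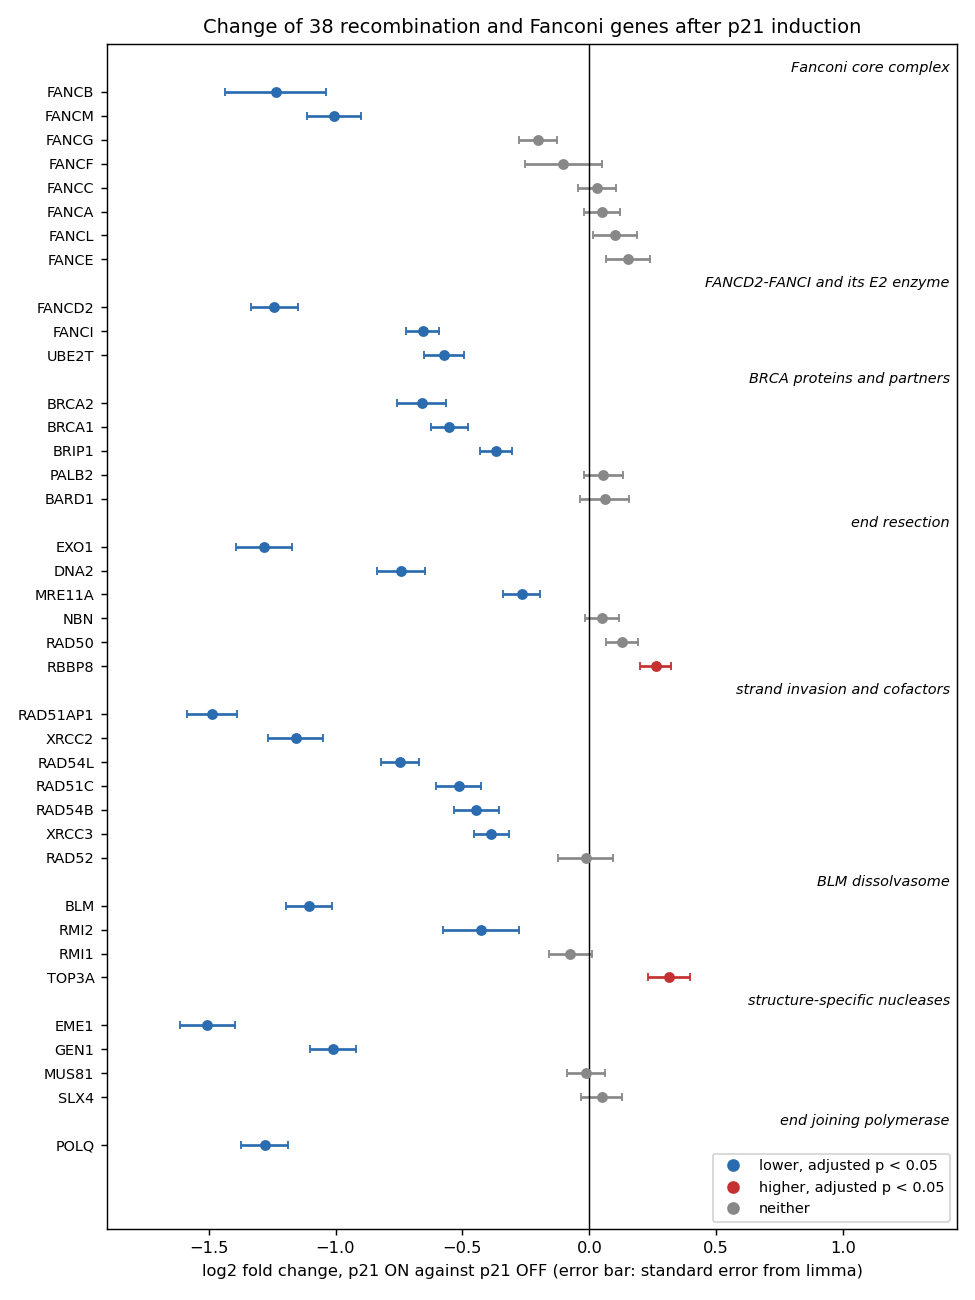
Log2 fold change of p21 ON against p21 OFF (horizontal axis) for each of the 38 genes, grouped by role, with the standard error from limma as the bar and the call as the colour. The 22 genes called lower reach -1.51 (EME1), and RBBP8 and TOP3A are the 2 called higher.

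Promoters are shown for the 4 genes with the largest falls and the 2 that rose, because these genes moved apart and the cell cycle elements of their starts can be compared. Each window runs from 250 bases before to 50 bases after the transcript start, is given on the strand of the gene from the RefSeq promoter table of GRCh38.p14, and has exact matches in capitals. The letters searched on both strands were TTTCGCGC, TTTGGCGC, TTTCCCGC and TTTGCCGC for the E2F element and TTTGAA and TTCGAA for the CHR, the element of G2/M promoters, and neither set is contained in the other. EME1 is at chr17:50372979-50373278 (plus strand), RAD51AP1 at chr12:4538640-4538939 (plus), EXO1 at chr1:241847954-241848253 (plus), POLQ at chr3:121545939-121546238 (minus), TOP3A at chr17:18314945-18315244 (minus) and RBBP8 at chr18:22933078-22933377 (plus).
EME1: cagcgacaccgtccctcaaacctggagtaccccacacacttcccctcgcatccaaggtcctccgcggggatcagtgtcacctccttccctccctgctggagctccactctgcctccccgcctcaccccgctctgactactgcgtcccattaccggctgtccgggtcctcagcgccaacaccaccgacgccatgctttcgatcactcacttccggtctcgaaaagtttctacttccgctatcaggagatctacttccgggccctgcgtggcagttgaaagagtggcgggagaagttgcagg
RAD51AP1: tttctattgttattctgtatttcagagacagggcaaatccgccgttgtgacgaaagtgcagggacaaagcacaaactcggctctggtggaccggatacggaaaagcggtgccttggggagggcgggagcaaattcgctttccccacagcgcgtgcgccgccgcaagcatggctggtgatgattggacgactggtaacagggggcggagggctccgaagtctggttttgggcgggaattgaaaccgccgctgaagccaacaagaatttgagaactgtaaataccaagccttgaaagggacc
EXO1: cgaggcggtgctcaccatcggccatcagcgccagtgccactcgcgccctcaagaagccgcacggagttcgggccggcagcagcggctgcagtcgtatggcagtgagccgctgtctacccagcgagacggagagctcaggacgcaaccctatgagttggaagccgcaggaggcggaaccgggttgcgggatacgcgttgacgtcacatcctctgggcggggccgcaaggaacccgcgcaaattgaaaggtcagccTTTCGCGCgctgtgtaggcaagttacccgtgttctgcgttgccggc
POLQ: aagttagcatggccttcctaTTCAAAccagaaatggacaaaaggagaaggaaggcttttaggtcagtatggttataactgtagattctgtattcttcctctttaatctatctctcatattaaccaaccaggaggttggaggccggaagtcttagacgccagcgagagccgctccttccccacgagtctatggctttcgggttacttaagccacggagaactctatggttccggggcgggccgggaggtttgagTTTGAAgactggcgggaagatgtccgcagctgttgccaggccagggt
TOP3A: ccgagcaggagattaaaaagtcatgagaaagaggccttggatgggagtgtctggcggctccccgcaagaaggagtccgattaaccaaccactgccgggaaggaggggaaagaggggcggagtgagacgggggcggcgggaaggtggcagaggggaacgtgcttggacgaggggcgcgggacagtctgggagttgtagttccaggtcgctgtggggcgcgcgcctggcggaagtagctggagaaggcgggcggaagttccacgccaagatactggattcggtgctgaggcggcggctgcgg
RBBP8: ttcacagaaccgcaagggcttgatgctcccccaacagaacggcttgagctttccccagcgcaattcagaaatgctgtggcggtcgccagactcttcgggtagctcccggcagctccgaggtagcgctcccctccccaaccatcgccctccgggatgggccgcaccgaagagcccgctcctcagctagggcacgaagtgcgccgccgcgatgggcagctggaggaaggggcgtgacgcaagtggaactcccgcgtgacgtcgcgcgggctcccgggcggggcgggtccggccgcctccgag

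EXO1 held E2F letters 4 to 11 bases after the start, POLQ held CHR letters 3 to 8 bases after the start and again at -230 to -225, and the other 4 windows held no match. The table gave a promoter for 33 of the 38 genes. E2F letters were in 6 of the 33 windows (18.2%), beside 3.33% of all 27305 windows of the table and 5.32% of the 10268 windows of tested genes. CHR letters were in 4 of the 33 (12.1%), beside 16.6% and 11.2%. Of the 5 genes with E2F letters alone, EXO1, FANCD2, XRCC2 and GEN1 were lower and FANCA was neither. In FANCD2 the letters spanned -2 to 5 from the start, in GEN1 1 to 8 and in XRCC2 21 to 28. In FANCA they lay at -172 to -165. POLQ, UBE2T and BRIP1 held CHR letters alone and were lower. The letters of UBE2T lay at -153 to -148 and those of BRIP1 at -240 to -235. FANCC, which held both, was neither. Its E2F letters lay at -172 to -165 and at -46 to -39, and its CHR letters at -248 to -243. The relation of position to change was not tested. Of the 24 genes with neither set of letters, 11 were lower, and among the other tested genes 12% of 8616 with neither, 15.1% of 471 with E2F letters alone, 23.3% of 1079 with CHR letters alone and 29.0% of 69 with both were lower. A match describes the sequence only, and an absent match says only that these letters are not in the window.

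Within the Fanconi core complex, FANCB and FANCM fell and the other 6 genes did not pass the test. FANCB, a partner of FANCL in the catalytic module, was the weakest of the 38 genes, with 50.2, 66.4 and 65.0 normalized counts with p21 OFF and 23.3, 30.5 and 21.9 with p21 ON. Every p21 ON library was below every p21 OFF library, and the log2 fold change was -1.24 (SE 0.20, limma adjusted p = 0.000265). FANCM, a DNA translocase that anchors the complex on chromatin, went from 274, 289.8 and 267 to 143, 151 and 119.7 normalized counts without overlap, a log2 fold change of -1.005 (SE 0.11, limma adjusted p = 1.86e-06). FANCA, the core transcript with the most normalized counts per kb, held 1689, 1892 and 1778 normalized counts with p21 OFF and 2006, 1694 and 1861 with p21 ON, and the groups overlapped. Its log2 fold change was 0.051 (limma adjusted p = 0.632). FANCL, the ligase subunit, had a log2 fold change of 0.10 (limma adjusted p = 0.414), FANCC 0.030 (limma adjusted p = 0.809), FANCE 0.15 (limma adjusted p = 0.212) and FANCF -0.10 (limma adjusted p = 0.655). FANCG lay just outside the threshold, with a log2 fold change of -0.20 (limma adjusted p = 0.0618) and all p21 ON libraries (540.2, 537 and 557) below all p21 OFF libraries (648, 659 and 576). It was called lower, at -0.26, when p21 OFF replicate 3 was left out.

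FANCD2 and FANCI, which the core complex ubiquitinates, and UBE2T all fell. The ligase gene FANCL, given above with the core complex, did not pass the test. FANCD2 went from 401, 379 and 393 normalized counts in the p21 OFF libraries to 161, 156 and 179 in the p21 ON libraries, a fold of 2.36 between the groups. Its log2 fold change was -1.24 (SE 0.092, limma adjusted p = 1.07e-08). FANCI, the partner of FANCD2 in the clamp, was 1895 ± 7.72 normalized counts with p21 OFF and 1204 ± 80.9 with p21 ON (SD, n = 3 each), and fell by less, with a log2 fold change of -0.66 (SE 0.065, limma adjusted p = 6.19e-07). UBE2T, the E2 enzyme that works with the ligase FANCL, had 797, 702 and 684 normalized counts with p21 OFF and 473, 517 and 475 with p21 ON and a log2 fold change of -0.57 (SE 0.079, limma adjusted p = 4.50e-05). None of FANCD2, FANCI and UBE2T had overlapping groups.

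**Figure D2:**
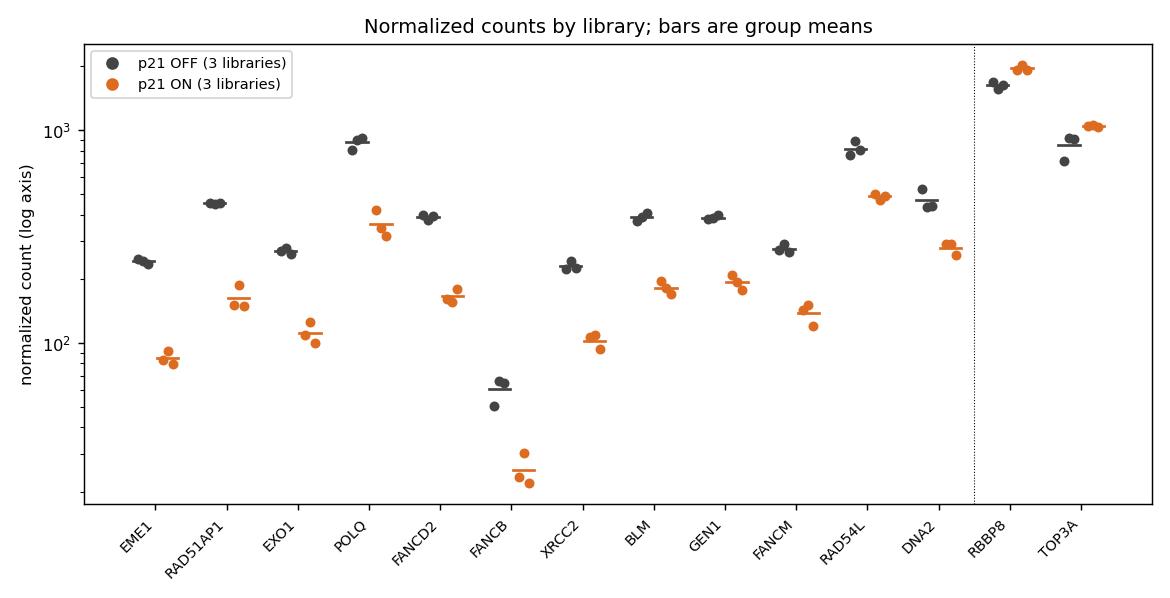
Normalized counts (vertical log axis) in each of the 3 p21 OFF and 3 p21 ON libraries for the 12 genes with the largest falls and, right of the dotted line, the 2 genes that rose, with bars at the group means. For each of the 14 genes the points of the groups do not overlap, and FANCB lies lowest, with a p21 ON mean of 25.2.

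Among the BRCA proteins and their partners, BRCA1, BRCA2 and BRIP1 fell, while BARD1 and PALB2 did not pass the test. BRCA1, a ubiquitin ligase that promotes resection, had 779, 785 and 824 normalized counts with p21 OFF and 542, 578 and 509 with p21 ON. The groups did not overlap and the log2 fold change was -0.55 (SE 0.073, limma adjusted p = 2.94e-05). BARD1, which forms a heterodimer with BRCA1, had 409, 462 and 489 normalized counts with p21 OFF and 533, 480.1 and 409.6 with p21 ON, and the groups overlapped. Its log2 fold change was 0.061 (limma adjusted p = 0.682), and it was -0.010 without p21 OFF replicate 1. BRCA2, which acts with PALB2 before strand invasion, went from 644, 784 and 818 to 518, 419 and 481 normalized counts, all p21 ON libraries being lower, with a log2 fold change of -0.66 (SE 0.095, limma adjusted p = 7.90e-05). PALB2, the bridge between BRCA1 and BRCA2, stayed between 428 and 468 normalized counts over the 6 libraries, with a log2 fold change of 0.056 (limma adjusted p = 0.626). BRIP1, a helicase bound by BRCA1, was an abundant member that fell modestly, from 1523 ± 67.4 to 1180.4 ± 38.1 normalized counts (SD, n = 3 each), which is -0.37 (limma adjusted p = 0.000512) on the log2 scale.

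The end resection genes moved in both directions. EXO1, the exonuclease of long-range resection, had 271, 279 and 262 normalized counts with p21 OFF and 108, 126 and 99.8 with p21 ON. Its highest p21 ON library was below the lowest p21 OFF library, and the log2 fold change was -1.28 (SE 0.11, limma adjusted p = 8.01e-08). DNA2, the nuclease-helicase of the other long-range route, went from 529.99, 434 and 441 to 289.9, 289.99 and 258 normalized counts, again without overlap, a log2 fold change of -0.74 (SE 0.094, limma adjusted p = 1.70e-05). MRE11A, the nuclease that begins resection, fell slightly, with 550.1, 562 and 554 normalized counts with p21 OFF and 466, 472 and 448 with p21 ON and a log2 fold change of -0.27 (limma adjusted p = 0.0135). Its call was lost without p21 ON replicate 1 (adjusted p = 0.0502) and without p21 ON replicate 3 (adjusted p = 0.0566). RAD50 and NBN, which form one complex with MRE11, had log2 fold changes of 0.13 (limma adjusted p = 0.143) and 0.050 (limma adjusted p = 0.621), and RAD50 was called higher when libraries were scaled by their totals, at 0.17. RBBP8, the gene of CtIP on chromosome 18, rose, from 1680.4, 1565 and 1629.8 normalized counts to 1914, 2023 and 1911, every p21 ON library being higher. Its log2 fold change was 0.26 (SE 0.061, limma adjusted p = 0.00514).

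Of the 7 genes of strand invasion and its cofactors, 6 fell and RAD52 did not pass the test. RAD51AP1, which stimulates strand invasion, lies on chromosome 12 from 4647964 to 4669213 of GRCh37, the build of hg19, and was close to constant in the p21 OFF libraries, at 455, 449 and 452 normalized counts. With p21 ON it had 150.2, 186 and 148, a fold of 2.80 between the groups and a log2 fold change of -1.49 (SE 0.099, limma adjusted p = 2.46e-09). XRCC2, which also acts in strand invasion, had 222, 241 and 225 normalized counts with p21 OFF and 106, 108 and 93.1 with p21 ON and a log2 fold change of -1.16 (SE 0.11, limma adjusted p = 3.41e-07). RAD51C and XRCC3 form a complex of their own and fell by less, with log2 fold changes of -0.51 (limma adjusted p = 0.000485) and -0.39 (limma adjusted p = 0.000701). RAD54L, a DNA motor of strand invasion, went from 762, 887 and 806 to 503, 468 and 490.3 normalized counts, all p21 ON libraries being lower, a log2 fold change of -0.75 (SE 0.076, limma adjusted p = 1.00e-06). Its relative RAD54B changed by -0.45 (limma adjusted p = 0.00177). RAD52, an annealing protein, had 186, 164 and 164 normalized counts with p21 OFF and 154, 173 and 182 with p21 ON, with overlap and a log2 fold change of -0.015 (limma adjusted p = 0.937), which turned positive when libraries were scaled by their totals, at 0.029.

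In the complex that dissolves double Holliday junctions the helicase gene fell and the topoisomerase gene rose. BLM had 376, 388 and 408 normalized counts with p21 OFF and 194, 180.3 and 169 with p21 ON, without overlap, and a log2 fold change of -1.10 (SE 0.091, limma adjusted p = 5.16e-08). TOP3A, the topoisomerase on chromosome 17, had 715, 921 and 903 normalized counts with p21 OFF and 1044, 1059 and 1033 with p21 ON, so the p21 ON libraries were all higher and p21 OFF replicate 1 was the lowest library. Its log2 fold change was 0.31 (SE 0.084, limma adjusted p = 0.0126), was 0.20 without p21 OFF replicate 1, and was no longer called without p21 ON replicate 1 (adjusted p = 0.0528) or p21 ON replicate 3 (adjusted p = 0.0522). The scaffold genes RMI1 and RMI2 had log2 fold changes of -0.075 (limma adjusted p = 0.562) and -0.43 (limma adjusted p = 0.0478). RMI2, with 94.2, 70.3 and 80.6 normalized counts with p21 OFF and 60.5, 59.7 and 59.9 with p21 ON, lay just inside the threshold. It was not called by edgeR (adjusted p = 0.0576) or DESeq2 (adjusted p = 0.151), and with each library left out in turn it was called in 1 of 6 fits.

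EME1 and GEN1, from different routes of junction cleavage, fell, while MUS81 and SLX4 did not pass the test. EME1, the regulatory partner of the nuclease MUS81, had the largest fall of the 38 genes and lies on chromosome 17 from 48450581 to 48458844 of GRCh37. It had 249, 241 and 235 normalized counts with p21 OFF and 82.7, 91.4 and 79.8 with p21 ON, a fold of 2.84 between the groups. The log2 fold change was -1.51 (SE 0.11, limma adjusted p = 8.30e-09), and it stayed between -1.56 and -1.46 with each library left out in turn. GEN1, a Holliday junction resolvase, went from 382, 385 and 397 to 208, 193 and 177 normalized counts without overlap, a log2 fold change of -1.01 (SE 0.091, limma adjusted p = 1.85e-07). MUS81 itself had 1045, 1103 and 907 normalized counts with p21 OFF and 998, 1039 and 978 with p21 ON, with overlapping groups and a log2 fold change of -0.015 (limma adjusted p = 0.909), which turned to 0.029 when libraries were scaled by their totals. SLX4, the scaffold of several nucleases, had a log2 fold change of 0.048 (limma adjusted p = 0.703). POLQ, the polymerase of microhomology-mediated end joining, a route that also starts from resected ends, had 804, 898 and 921 normalized counts with p21 OFF and 420.3, 345 and 319 with p21 ON. All p21 ON libraries were lower, and the log2 fold change was -1.28 (SE 0.094, limma adjusted p = 9.73e-09).

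The unequal changes of partners in one complex are shown as the ratio of their transcripts in each library, from normalized counts per kb of the canonical transcript. The 10 pairs were chosen after the changes of the genes had been seen, so the ratios restate those changes as a description and were not tested. EME1 stood at 0.242 transcripts per MUS81 transcript with p21 OFF and 0.0853 with p21 ON, a difference in log2 ratio of -1.50. For BLM against TOP3A the ratio was 0.585 and then 0.218, and for BRCA2 against PALB2 it was 0.569 and 0.346. BRCA1 was above BARD1 with p21 OFF, at 1.36, and below it with p21 ON, at 0.889. FANCD2 stood at 0.192 and 0.127 per FANCI, MRE11A at 0.472 and 0.358 per RAD50, RMI2 at 0.543 and 0.423 per RMI1 and UBE2T at 3.39 and 2.12 per FANCL. RBBP8 against MRE11A, with the gene that fell as the denominator, was higher with p21 ON, 6.11 and then 8.82. The direction of a ratio follows from which gene of the pair was made the numerator. The overlapping pair was RAD51C against XRCC3, at 0.681 and 0.624. These are ratios of RNA, and the length used is that of 1 transcript for each gene.

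**Figure D3:**
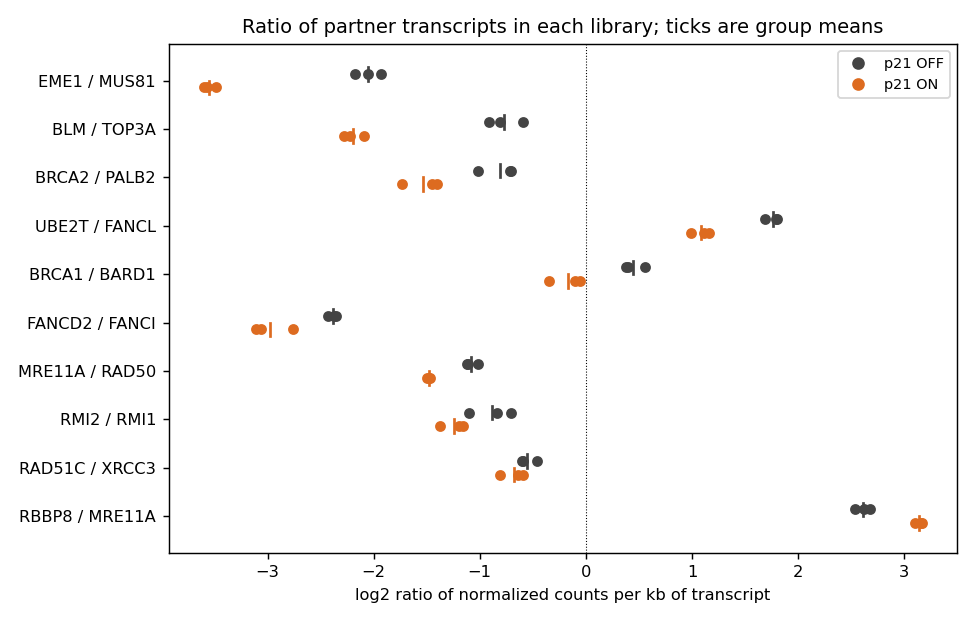
Log2 ratio of normalized counts per kb of transcript (horizontal axis) for 10 pairs of partner genes, with 1 point for each of the 3 p21 OFF and 3 p21 ON libraries and a tick at each group mean. The p21 ON points lie left of the p21 OFF points in 8 pairs, right of them for RBBP8 against MRE11A, and overlap them for RAD51C against XRCC3. Left or right follows from which gene of a pair was made the numerator.

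On the same per-length scale the levels of the 38 genes in p21 OFF cells spanned from 20.1 normalized counts per kb for FANCB to 829 for UBE2T. After UBE2T came RBBP8 (496), MUS81 (431), FANCI (400.4) and FANCA (328). At the low end, FANCB was followed by FANCM (38.8), GEN1 (39.0), FANCF (40.7) and XRCC2 (48.1). With p21 ON, FANCB had 8.35, GEN1 19.3, FANCM 19.4 and XRCC2 21.5 normalized counts per kb, while UBE2T had 556 and RBBP8 595. Across the 38 genes the p21 OFF level per kb and the log2 fold change had a Spearman correlation of 0.38, and canonical transcript length and the log2 fold change one of 0.0058. The genes share the same 6 libraries, and the p21 OFF level enters both the first measure and the fold change.

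Exons annotated on the opposite strand overlapped those of 21 of the 38 genes, and the sources used here do not say if reads were counted by strand. Of the 22 genes that fell, 9 overlapped no other annotated exon on either strand, among them RAD51AP1, POLQ, XRCC2, FANCM, DNA2 and BRCA2. EME1 overlaps LRRC59, which changed by -0.20 on the log2 scale (limma adjusted p = 0.0250). GEN1 overlaps SMC6, at 0.12 (adjusted p = 0.199), RAD54L overlaps LRRC41, at 0.14 (adjusted p = 0.104), and FANCI overlaps POLG, at 0.091 (adjusted p = 0.405). MUS81 overlaps the abundant CFL1, which fell by 0.27 on the log2 scale (adjusted p = 0.00614).

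Other genes of the same pathways were taken from a list of 40, of which 39 were in the table and 37 were tested. SLX1A and SLX1B, near-identical copies, were listed at 0 in all libraries. Of the 37 genes, 10 were lower (27.0%) and 1 was higher (2.70%), with a median log2 fold change of -0.11. HROB (listed as C17orf53), which recruits the MCM8-MCM9 helicase, fell by 1.14 on the log2 scale (adjusted p = 2.58e-07 from limma), and ZGRF1 (listed as C4orf21) fell by 1.04 (adjusted p = 1.22e-06). RECQL5, a helicase that limits recombination, rose by 0.19 (adjusted p = 0.0443) and lost its call, among other settings, at a threshold of 0.01, under TMM scaling, with no filter on low values, and when any of p21 OFF replicate 3, p21 ON replicate 1 and p21 ON replicate 3 was left out. The genes called lower numbered 6 without p21 ON replicate 1. In non-homologous end joining, which needs no template, 2 of 10 genes were lower and 2 higher, and of 7 mismatch repair genes 2 were higher and 5 did not pass the test. On so few genes these counts are not set apart from the 12.7% lower and 10.5% higher among all genes tested. Medians of these lists were -0.016 and 0.16.

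The study sorts cell cycle genes by the phase in which they peaked in earlier data sets, into G1/S and G2/M lists of high and low stringency. Of the 38 genes, 20 are in a G1/S list, 2 (POLQ and RAD51C) in a G2/M list of low stringency and 16 in none. Among the 20, 12 were lower, RBBP8 and TOP3A were higher, and the median log2 fold change was -0.44. The other 517 G1/S genes tested, of either stringency, had a median of 0.0062, with 20.3% lower and 16.8% higher. The 416 G2/M genes outside the 38, also of either stringency, had a median of -0.31, with 59.1% lower and 1.20% higher. The whole G1/S list of high stringency, which holds EXO1, BLM, BRCA1, BARD1 and RBBP8, had a median of 0.095 over 57 tested genes. Of these 17.5% were lower and 35.1% higher. For the 101 tested G2/M genes of high stringency the median was -1.15, with 92.1% lower and 0% higher. RAD51AP1, EXO1, XRCC2, BLM, RAD54L, DNA2, BRCA2, FANCI, BRCA1, RAD54B, RMI2 and BRIP1 were the G1/S genes that fell. Of the 16 genes in no list, 8 were lower, with EME1, FANCD2, FANCB, GEN1 and FANCM at or beyond 1 on the log2 scale, and the rest, UBE2T, XRCC3 and MRE11A, between -0.57 and -0.27. The difference between these genes and the rest of the G1/S lists was not tested, since the genes were chosen with results of these libraries known.

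**Figure D4:**
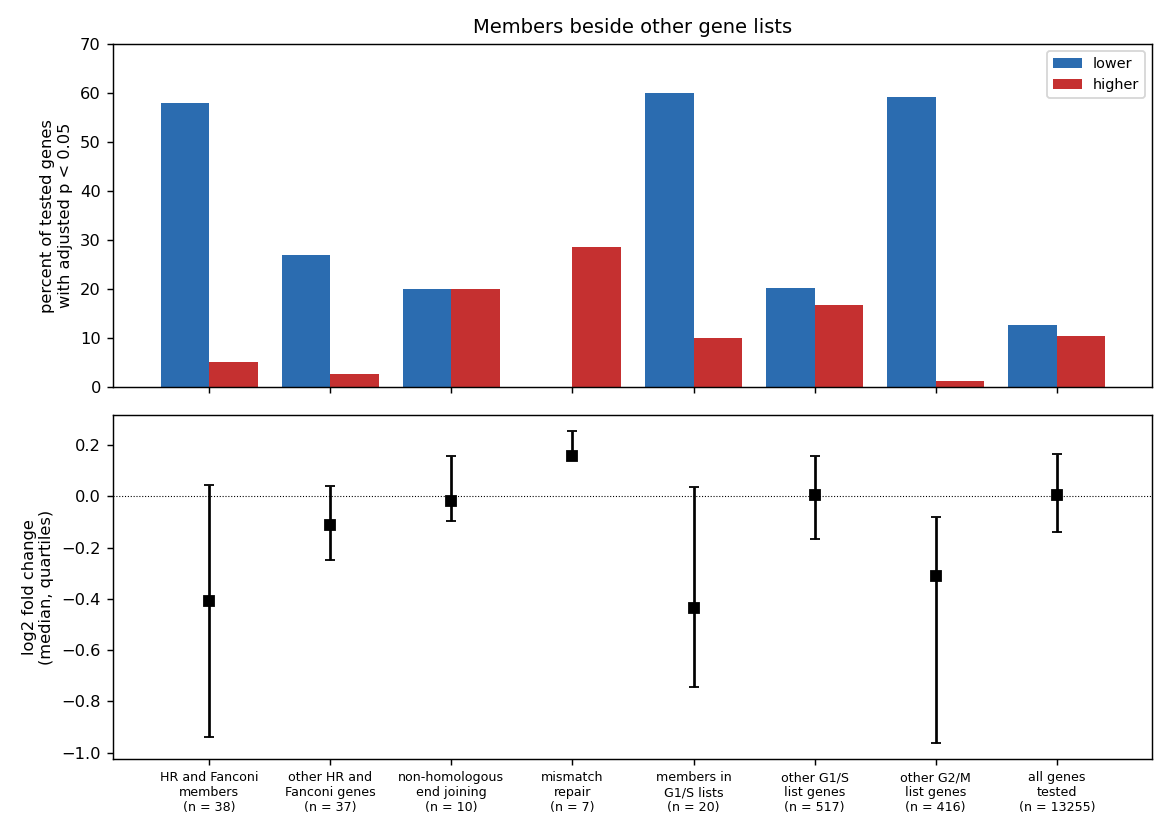
Percent of tested genes with an adjusted p-value under 0.05 in each direction (upper panel) and median log2 fold change with quartiles (lower panel), for the 38 genes, other lists and all genes tested. Of the 38 genes 57.9% were lower, beside 27.0% of the other recombination and Fanconi genes, 20.3% of the other G1/S list genes, 59.1% of the other G2/M list genes and 12.7% of all genes.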

How the data were processed

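RNA from 6 SaOS-2 libraries was analysed, 3 p21 OFF and 3 p21 ON. The authors prepared stranded mRNA libraries, aligned single-end reads with STAR (hg19), assigned them to genes with HTSeq and scaled the result by DESeq2 size factors. What the authors deposited is thus a normalized count per gene, a signal of 0 or above. Division by the step of each library made 100% of its values whole (tolerance 0.01), which gave back the reads. Versions of the authors' tools are not given in the sources used here.

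The main test was limma 3.58.1 (lmFit, eBayes with trend) in R 4.3.3 on log2(normalized count + 1), without covariates. Genes needed a mean of 10 or more, p-values were adjusted by Benjamini-Hochberg, and the threshold was 0.05. Fold changes on this scale understate changes of weak genes. The fit was tested on simulated data. Alternatives were edgeR 4.0.16 and DESeq2 1.42.0 on the recovered reads, library size and TMM scaling, pseudocounts of 0.1 and 10, other filters, a threshold of 0.01, a replicate block and each library left out.

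The genes and lists were chosen with earlier results of these data known. By rule, the 12 largest falls and up to 6 rises past the threshold were given in full, all other members by their change, up to 3 genes each way from each comparison list, and promoters for 4 falls and 2 rises. Values of further genes and the partner pairs were chosen after their values were seen. Some genes of these lists are not reported here. Positions and lengths are from GENCODE release 44 on GRCh37, and promoters from RefSeq on GRCh38.p14. Each cell cycle list was used as copied from the study's supplement and may be incomplete.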

Additional observations from a re-analysis of the deposited data

How the results depend on the processing

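Of the 22 genes that fell, 20 kept their call and direction in all 17 alternatives, as did RBBP8, the exceptions being RMI2, MRE11A and TOP3A. The count of genes called lower was 20 to 22 and the count called higher 1 to 2 with a library left out, and a threshold of 0.01 left 20 lower and 1 higher. The median log2 fold change of the 38 genes was -0.36 under library size scaling and -0.38 with a pseudocount of 10, and -0.43 to -0.39 with a library left out. Over all genes, 1393 were higher and 1681 lower. A threshold of 0.01 gave 616 and 882, and leaving out a library gave 695 to 1486 higher and 887 to 1660 lower, with 695 and 887 without p21 ON replicate 1 and 739 and 1077 without p21 ON replicate 3. edgeR with TMM on the recovered reads gave 1401 and 1647, and library size scaling, which turned the balance, 2034 and 1194. Of the other pathway genes, 10 were lower and 1 higher, against 6 and 0 at 0.01, 0 higher under TMM scaling, without a filter and with the replicate block, and 6 to 10 lower and 0 to 1 higher with a library left out (6 lower without p21 ON replicate 1). The shorter window of 150 bases before to 50 after the start kept E2F letters in 5 of 6 promoters and CHR letters in 1 of 4. Of the 33 promoters this is 15.2% and 3.03%, beside 2.37% and 10.3% of all 27305 in that shorter window. For these changes the cause was not tested.

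Sign changes were found in genes that no fit called. RAD52 was 0.0013 by edgeR, 0.0028 by DESeq2 and 0.029 under library size scaling, where MUS81 was 0.029. With a library left out the values ranged from -0.068 to 0.055 for RAD52, -0.096 to 0.045 for MUS81, -0.23 to 0.047 for FANCF, -0.0031 to 0.072 for FANCC, -0.031 to 0.11 for SLX4, -0.0076 to 0.11 for FANCA and -0.028 to 0.16 for BARD1. Libraries of the same number did not deviate together (correlations of -0.057, -0.025 and -0.048 for numbers 1 to 3). The replicate block gave 1407 genes higher and 1513 lower, with 22 of the 38 genes lower and 2 higher. Depth limits FANCB most, with 20 reads in its lowest library.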

Other observations

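Of 10 genes of non-homologous end joining, PRKDC and POLM rose and XRCC4 and XRCC6 fell, beside 10.5% higher and 12.7% lower among all genes tested, so on 10 genes the counts say nothing particular of the list. PRKDC, the catalytic subunit of DNA-PK, had 5989, 7047 and 6907 normalized counts with p21 OFF and 9298, 8455 and 8869.6 with p21 ON, all higher, a log2 fold change of 0.42 (SE 0.068, limma adjusted p = 0.000253). POLM, a gap-filling polymerase, rose by 0.31 (adjusted p = 0.0262 from limma). XRCC4, the partner of LIG4, went from 198, 149.98 and 133 to 74.5, 106 and 86.5 normalized counts without overlap, a log2 fold change of -0.84 (SE 0.16, limma adjusted p = 0.000947), while LIG4 itself had -0.082 (limma adjusted p = 0.506). XRCC6, which encodes Ku70, changed by -0.27 (limma adjusted p = 0.00330) and XRCC5, which encodes Ku80, by -0.10 (limma adjusted p = 0.223). In mismatch repair MSH6 rose by 0.36 (adjusted p = 0.000328 from limma). The p21 ON libraries lay above the p21 OFF libraries for 6 of the 7 genes of that list, where 19.1% of all genes tested did. Of the 7 genes 2 were called higher and 5 did not pass the test. The 7 share the same libraries, and the list was not tested against all genes.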
